A study of Mus musculus with 12 samples.

Results

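Notch ligands, receptors and targets were followed in blood vessels isolated from the mouse forebrain (cerebral vessels) during the first hours after lipopolysaccharide (LPS), a bacterial endotoxin. The group consists of 10 genes, chosen by symbol: the ligands Jag1, Jag2, Dll1, and Dll4, the receptors Notch1, Notch3, and Notch4, and the targets Hes1, Hey1, and Heyl. All 10 were found among the 54119 genes with an estimate, and all 10 were among the 19150 genes that passed the filter on low counts. The samples came from wild type C57BL6 mice of 2 to 3 months of age, given a single intraperitoneal dose of LPS at 10 mg/kg or, as the control, endotoxin-free PBS. Vessels were collected 15 min, 30 min, or 4 h after LPS (groups LPS 15 min, LPS 30 min, and LPS 4 h), and the interval after PBS is not given in the sources used here. Each of the 4 groups had 3 libraries, and each library pooled 1 male and 1 female mouse, so that sexes cannot be told apart and each group drew on 6 mice. The 3 libraries of a group are labelled as separate samples, and the p-values below measure the spread between such pools of 2 mice.

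Notch signaling passes between cells that touch each other. A ligand of the Delta-like (Dll) or Jagged (Jag) family on a cell binds a Notch receptor on its neighbour, the receptor is cut by an ADAM protease and then by γ-secretase, and the freed intracellular part enters the nucleus, where it joins the DNA-binding protein RBPJ and a Mastermind coactivator to switch on the repressors of the Hes and Hey families. In blood vessels the pathway is known for setting the arterial identity of endothelial cells and, through Notch3, for maintaining the smooth muscle cells and pericytes that wrap the vessel wall.

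The libraries held 18.3 to 25.9 M estimated fragments, and each member was estimated from at least 272 fragments (Hey1 in a LPS 4 h library) and at most 17284 (Jag2 in a PBS library), so counting error was small for every member. Levels below are CPM, a gene's counts relative to the library total, scaled by TMM factors, which set libraries to a common level for the bulk of the genes. These factors were 1.16 to 1.17 in PBS and 0.715 to 0.718 in LPS 4 h, and with library size alone the median of all tested genes fell by 0.71 on the log2 scale at LPS 4 h. Cell type markers were checked in the same libraries. The summed level of 10 endothelial markers was 9540 to 9845 CPM in PBS. It was 9802 to 9848 CPM at LPS 15 min and 10571 to 10629 at LPS 30 min, while at each of these times 2 of the 10 fell (Cldn5 and Kdr) and 1 rose (Slc2a1). At LPS 4 h, where 6 of the 10 fell and 2 rose, it was 6538 to 6611 CPM. Of 6 arterial markers, 5 fell and 1 rose at LPS 4 h, and of 4 venous markers 2 fell and 1 rose, with a sum of 1615 to 1678 CPM in PBS and 2461 to 2542 at LPS 4 h. The 7 smooth muscle markers summed to 2785 to 2814 CPM in PBS and 2582 to 2642 at LPS 4 h, with a lower sum of 1811 to 1846 at LPS 15 min. Of 6 neutrophil markers 5 were tested, and all 5 rose at LPS 4 h. The sum of the 6 went from between 4.23 and 5.50 CPM in PBS to between 183 and 186 CPM. Ly6g, which defines neutrophils, was at 0 in PBS and LPS 15 min, and its level at LPS 4 h is not given here. The 3 markers of the choroid plexus summed to 10260 to 10689 CPM in PBS, 13528 to 13871 at LPS 30 min (0 called), and 17251 to 18142 CPM at LPS 4 h (2 rose). Between PBS and LPS 4 h the sum of 7 astrocyte markers went from between 731 and 755 CPM to between 1395 and 1454 (3 rose), and that of 8 microglial markers from between 159 and 164 to between 97.2 and 103 (4 fell). The part of these shifts in the Notch values was not tested beyond the ratios to markers given below, and in bulk vessels fewer cells of a type and less RNA per cell cannot be told apart.

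Between LPS 4 h and PBS, 5 of the 10 members passed the test: Dll1 rose and Notch4, Jag2, Hey1, and Heyl fell. This test (edgeR, all 12 libraries in 1 fit) asked for a change beyond 1.5-fold at p below 0.05 after Benjamini-Hochberg adjustment across the 19150 genes. In this comparison it called 32.8% of all genes, 19.0% upward and 13.8% downward, so that calls were frequent among genes at large. At LPS 15 min only Heyl among the 10 passed, downward, where 4.18% of all genes were called (0.872% downward). At LPS 30 min Heyl fell and Dll4 rose, where 4.58% of all genes were called (3.78% upward, 0.799% downward). None of the 10 differed by the test between LPS 30 min and LPS 15 min, where 4.65% of all genes were called. With no fold limit the same edgeR fit called 5 members in that comparison, beside 37.4% of all genes, while at an unadjusted p under 0.05 the count with the fold limit stayed at 0, as it did with DESeq2 and limma. Against PBS the fit with no fold limit called 8 members at LPS 15 min (38.6% of all genes), 9 at LPS 30 min (36.9%), and 9 at LPS 4 h (68.5%). The median log2 fold changes of the 10 were 0.09, 0.05, and -0.46 in time order, against medians of all tested genes of -0.0021, -0.010, and -0.0098. Every LPS 4 h library lay outside the range of the PBS libraries for 9 of the 10 members, all but Notch1, while 70.9% of all tested genes had no overlap between these groups. At both early times this held for 9 members, all but Jag2, beside 49.3% of all genes at LPS 15 min and 46.7% at LPS 30 min.

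**Figure D1:**
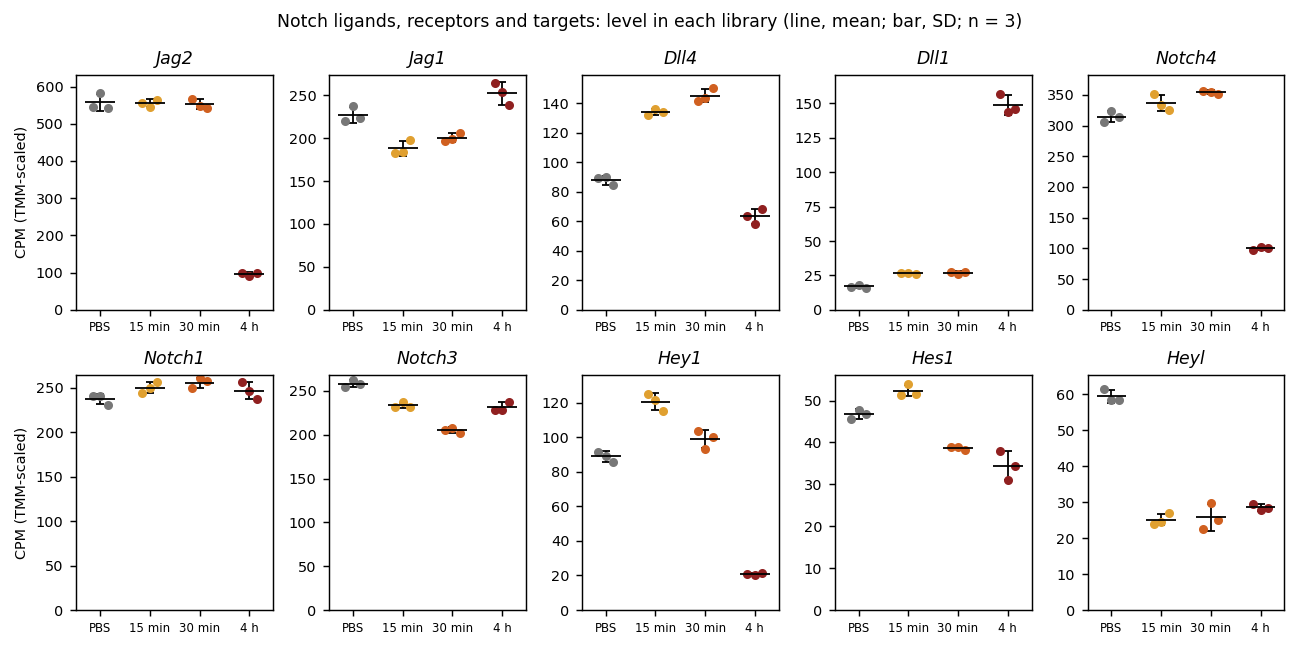
CPM of each of the 10 members in each library (vertical axes, scaled by TMM factors, starting at 0) in PBS and at the 3 times after LPS. Points are libraries, the line is the mean, and the bar is the SD over 3 libraries. Jag2, Notch4, and Hey1 stay near their PBS level or above it to LPS 30 min and lie far below it at LPS 4 h, Dll1 lies above PBS at both early times and far above it at LPS 4 h, and Heyl is already low at LPS 15 min.

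Among the ligands, Jag2 was the most abundant in control vessels. Jag2 (ENSMUSG00000002799, GRCm38 chr12:112907819-112929776, minus strand) encodes a Jagged ligand. Its levels were 546, 583, and 543 CPM in PBS, 556, 546, and 565 at LPS 15 min, and 568, 547, and 542 at LPS 30 min. The early groups thus overlapped with PBS. By LPS 4 h the levels were 99.7, 90.3, and 97.8 CPM, all far below every other library. Jag2 fell by 2.54 on the log2 scale (SE 0.036, edgeR adjusted p = 1.0e-23), 5.82-fold lower than in PBS.

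Dll1 (ENSMUSG00000014773, chr17:15367354-15376872, minus strand) encodes a Delta-like ligand and moved the other way. It was low in PBS at 16.8, 18.2, and 16.0 CPM, stood at 27.0, 26.9, and 25.7 at LPS 15 min and at 27.2, 25.8, and 27.8 at LPS 30 min, and reached 157, 144, and 146 CPM at LPS 4 h. All LPS libraries lay above all PBS libraries at each time. The log2 fold changes at LPS 15 min and LPS 30 min, 0.64 (SE 0.060) and 0.66 (SE 0.061), were too near the 1.5-fold limit to pass (edgeR adjusted p = 0.73 and 0.51), and both passed with no fold limit (adjusted p = 1.2e-08 and 9.8e-09). At LPS 4 h Dll1 rose by 3.13 (SE 0.056, edgeR adjusted p = 3.7e-22), 8.73-fold above PBS.

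Dll4 (ENSMUSG00000027314, chr2:119325784-119335962, plus strand) encodes the Delta-like ligand best known from arterial and sprouting endothelium. Its levels were 89.0, 90.2, and 84.5 CPM in PBS and 132, 136, and 134 at LPS 15 min. They were 141, 144, and 150 CPM at LPS 30 min and 63.3, 58.3, and 68.2 at LPS 4 h. The 4 groups did not overlap: Dll4 was above PBS at both early times and below it at LPS 4 h. The difference from PBS was 0.61 (SE 0.042) at LPS 15 min, 0.72 (SE 0.042, edgeR adjusted p = 0.0093) at LPS 30 min, and -0.48 (SE 0.047, adjusted p = 1) at LPS 4 h, so that LPS 30 min alone passed the test. With library size only the value at LPS 4 h was -1.18 and was called (edgeR adjusted p = 6.0e-12). The call at LPS 30 min with TMM factors sat close to the fold limit. It was lost with DESeq2 (adjusted p = 0.13), with an average transcript length offset (0.056), with limma on the authors' table plus 1 or 10 (0.42 and 0.50), with library size only (1), without PBS replicate 3 (0.063), and without LPS 30 min replicate 3 (0.067), while the log2 value stayed between 0.56 and 0.72 in these fits. Dll4 then fell from LPS 30 min to LPS 4 h (log2 difference -1.20, SE 0.046, edgeR adjusted p = 5.9e-12).

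Jag1 (ENSMUSG00000027276, chr2:137081456-137116644, minus strand), the other Jagged ligand, did not pass the test at any time. Its levels were 220, 237, and 224 CPM in PBS and 182, 184, and 198 at LPS 15 min. They were 196, 199, and 206 CPM at LPS 30 min and 265, 254, and 238 at LPS 4 h. The libraries of LPS 15 min and LPS 30 min were all below those of PBS and the libraries of LPS 4 h all above, with log2 differences of -0.27 (SE 0.038), -0.18 (SE 0.038), and 0.15 (SE 0.039). The difference at LPS 4 h turned to -0.55 with library size only.

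Sequence upstream of the start is shown for 3 members, to give the letters on which motif matches lie: Dll1, which rose most at LPS 4 h, Dll4, which stood above PBS with it early and parted from it at LPS 4 h, and Notch4, which fell. RefSeq promoter windows were at hand for 7 members and none for Hes1, Hey1, and Heyl. The window of Jag2, the member that fell most, lies wholly inside a GENCODE exon of the gene and is not printed. Shown are bases upstream of the GENCODE gene of Dll1 (GRCm38.p6 chr17:15376933-15377182, minus strand), Dll4 (chr2:119325534-119325783, plus strand), and Notch4 (chr17:34564045-34564267, plus strand), each 5′ to 3′.
Dll1: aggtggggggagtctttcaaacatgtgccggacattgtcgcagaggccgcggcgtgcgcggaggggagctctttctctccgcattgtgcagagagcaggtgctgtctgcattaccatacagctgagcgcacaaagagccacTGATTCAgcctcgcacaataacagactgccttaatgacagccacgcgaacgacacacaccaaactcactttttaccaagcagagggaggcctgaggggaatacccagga
Dll4: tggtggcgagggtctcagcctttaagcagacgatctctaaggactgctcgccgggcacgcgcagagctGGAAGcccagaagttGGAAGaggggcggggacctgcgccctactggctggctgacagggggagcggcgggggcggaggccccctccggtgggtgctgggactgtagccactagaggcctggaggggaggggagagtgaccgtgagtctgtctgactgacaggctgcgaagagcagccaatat
Notch4: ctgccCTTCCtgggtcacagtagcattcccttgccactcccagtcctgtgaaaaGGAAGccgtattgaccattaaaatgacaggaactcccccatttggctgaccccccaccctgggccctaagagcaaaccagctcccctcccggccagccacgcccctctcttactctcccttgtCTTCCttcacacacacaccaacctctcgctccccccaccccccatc
Capitals in Dll4 and Notch4 mark matches on either strand to GGAAG, the core that transcription factors of the ETS family recognise. There were 2 in Dll4, 3 in Notch4, and 0 in Dll1, and 64.1% of 32851 mouse promoter windows of 250 bases held at least 1 match. Capitals in Dll1 mark its 1 match to TGANTCA (in 6.75% of all windows), searched here as a loose AP-1 motif with any base at the centre. The match, with T at the centre, lies at bases 142 to 148 of the sequence, and Dll4 and Notch4 had 0. The RBPJ core TGGGAA (21.6%) and the NF-kB motif (3.90%) had no match in these 3 sequences, on either strand. A further RefSeq start of Dll1 lies inside the gene, and the 97 bases between exons before it, not printed, held no match to any of the 4 motifs. No searched motif overlapped another in these letters. The window bases outside exons of Notch1 (248 bases), Notch3 (250), and Jag1 (126), not printed, also held no match to any of the 4 motifs. The window of Notch1 lies wholly inside the GENCODE gene, so it is not sequence upstream of the gene.

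The receptors were less mobile apart from Notch4. Notch4 (ENSMUSG00000015468, chr17:34564268-34588503, plus strand) encodes the receptor found mainly in endothelium. It measured 305, 324, and 314 CPM in PBS and 351, 333, and 325 at LPS 15 min. It measured 357, 355, and 352 CPM at LPS 30 min and 97.2, 102, and 101 at LPS 4 h. The early libraries all lay slightly above PBS, and the LPS 4 h libraries all lay below PBS. Notch4 fell by 1.65 (SE 0.033, edgeR adjusted p = 2.0e-19) at LPS 4 h, 3.14-fold lower than in PBS, whereas the early log2 differences of 0.10 and 0.17 (SE 0.029 each) did not pass.

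Notch1 (ENSMUSG00000026923, chr2:26457903-26516663, minus strand), a receptor of endothelium and of many other cells, measured 241, 240, and 231 CPM in PBS. At LPS 15 min it measured 243, 250, and 257 CPM, at LPS 30 min 249, 260, and 257, and at LPS 4 h 256, 246, and 237. The LPS 4 h and PBS libraries overlapped, and the log2 difference was 0.05 (SE 0.032, adjusted p = 1). With library size only the value was -0.65, which edgeR then called (adjusted p = 0.012), close to the shift of the median gene under that scaling.

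Notch3 (ENSMUSG00000038146, chr17:32120820-32166852, minus strand), the receptor of smooth muscle cells and pericytes, measured 254, 262, and 258 CPM in PBS and 231, 237, and 232 at LPS 15 min. Its levels were 206, 208, and 202 CPM at LPS 30 min and 228, 228, and 238 at LPS 4 h. Every LPS library was below every PBS library, by -0.14 (SE 0.026), -0.33 (SE 0.027), and -0.16 (SE 0.027) on the log2 scale. None of these passed the 1.5-fold test and all passed with no fold limit (edgeR adjusted p = 0.00012, 8.1e-10, and 2.0e-05). With library size only the value at LPS 4 h was -0.86 and was called beyond 1.5-fold (edgeR adjusted p = 2.5e-10).

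Among the targets, Hey1 and Heyl, 2 related repressors, fell at different times. Hey1 (ENSMUSG00000040289, chr3:8663359-8667256, minus strand), known as a Notch target of endothelium, measured 91.7, 88.9, and 85.9 CPM in PBS and 125, 121, and 115 at LPS 15 min. It measured 104, 93.4, and 100 CPM at LPS 30 min and 21.0, 20.3, and 21.7 at LPS 4 h. Hey1 libraries were above PBS at both early times, at log2 differences of 0.44 (SE 0.042) and 0.16 (SE 0.043) that did not pass the test, the second of them -0.0080 with library size only. By LPS 4 h Hey1 had fallen by 2.08 (SE 0.057, edgeR adjusted p = 1.7e-17), 4.23-fold lower than in PBS.

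Heyl (ENSMUSG00000032744, chr4:123233556-123249875, plus strand), known as a Notch3 target of mural cells, measured 61.5, 58.5, and 58.5 CPM in PBS. It was already at 24.0, 24.6, and 26.9 CPM at LPS 15 min, ranged from 22.5 to 29.9 CPM (mean 25.8) at LPS 30 min, and was at 29.6, 27.8, and 28.4 at LPS 4 h. The LPS 30 min libraries overlapped those of both other LPS times, and none of the 9 LPS libraries came near PBS. Heyl fell by 1.24 (SE 0.072, edgeR adjusted p = 5.2e-08), 1.21 (SE 0.073, adjusted p = 1.0e-07), and 1.06 (SE 0.077, adjusted p = 1.7e-06), 2.36-fold, 2.31-fold, and 2.08-fold lower than in PBS.

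Hes1 (ENSMUSG00000022528, chr16:30064384-30067796, plus strand), a repressor that answers Notch in many cell types, did not pass the test at any time with TMM factors. It measured 45.6, 47.8, and 46.9 CPM in PBS and 51.4, 53.9, and 51.7 at LPS 15 min. It measured 38.9, 38.9, and 38.3 CPM at LPS 30 min and 37.9, 31.1, and 34.5 at LPS 4 h. Its libraries were above PBS at LPS 15 min (0.16, SE 0.053) and below PBS at LPS 30 min (-0.27, SE 0.055) and LPS 4 h (-0.44, SE 0.059). With library size only the last value was -1.15 and was called (edgeR adjusted p = 9.2e-10). The step from LPS 15 min to LPS 30 min was -0.43 (SE 0.055), with no overlap of libraries (as for 5 members and 47.6% of all genes in this comparison), and passed only with no fold limit (edgeR adjusted p = 1.0e-06).

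**Figure D2:**
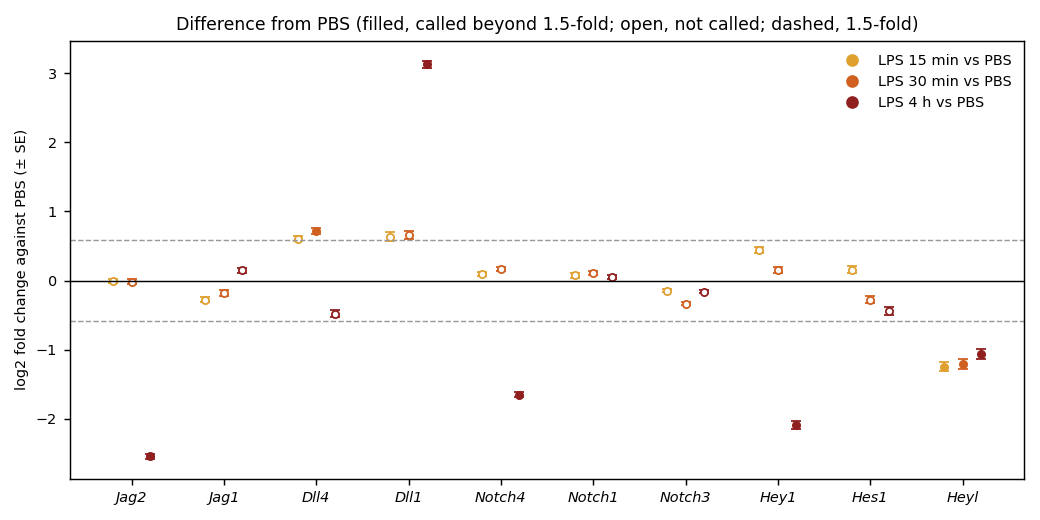
Log2 fold change against PBS (vertical axis, with SE bars that are often smaller than the symbol) of the 10 members at the 3 times after LPS. Filled symbols passed the test beyond 1.5-fold, whose limit is dashed. Heyl is filled at all 3 times, Dll4 at LPS 30 min, and Dll1, Jag2, Notch4, and Hey1 at LPS 4 h.

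Most of the change at LPS 4 h came after 30 min. Between LPS 30 min and LPS 4 h, 5 members passed the test, where 28.6% of all genes were called (16.9% upward, 11.8% downward). Dll1 rose by 2.47 (SE 0.054), and Jag2 (-2.53, SE 0.036), Hey1 (-2.24, SE 0.057), Notch4 (-1.82, SE 0.034), and Dll4 (-1.20, SE 0.046) fell, each with an edgeR adjusted p of 5.9e-12 or lower. Heyl did not pass in this interval (0.15, SE 0.083). With no fold limit 8 members were called, beside 65.3% of all genes, and 8 had no overlap between these groups, beside 67.5%.

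Ratios between members of the same library are free of any scaling between libraries. The log2 ratio of Dll1 to Dll4 was -2.37 ± 0.054 (SD, n = 3) in PBS, and -2.34 ± 0.046 and -2.43 ± 0.048 at the early times, so that both Delta-like ligands kept their proportion early. By LPS 4 h it was 1.24 ± 0.12. Jag1 to Jag2 went from -1.30 ± 0.015 in PBS to 1.39 ± 0.10 at LPS 4 h, a difference of 2.69. Notch4 to Notch1 went from 0.41 ± 0.057 to -1.30 ± 0.090. The log2 ratio of Heyl to Notch3 was -2.12 ± 0.062 in PBS and -3.22 ± 0.093, -3.00 ± 0.20, and -3.02 ± 0.064 at the 3 LPS times in order. Hey1 to Heyl was 0.58 ± 0.026 in PBS and 2.26 ± 0.15, 1.95 ± 0.29, and -0.45 ± 0.055 at the 3 LPS times in order, since Heyl fell first and Hey1 later.

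Ratios to the summed markers of a cell type were taken as well, as an alternative added after seeing the data. Relative to the 10 endothelial markers, Jag2, Hey1, and Notch4 were still lower at LPS 4 h than in PBS, by -1.98, -1.52, and -1.09 on the log2 scale, and Dll1 was higher by 3.69. On the same scale Dll4 stood at 0.59 above PBS at both LPS 15 min and LPS 30 min and at 0.08 at LPS 4 h, Hes1 at 0.11, Notch1 at 0.61, and Jag1 at 0.71 at LPS 4 h. A sum follows its most abundant markers most. Taken singly, the 10 endothelial markers differed from PBS at LPS 4 h by -2.58 to 1.96 (median -1.05). The 6 arterial markers differed by -2.72 to 1.30 (median -1.53), and no ratio to them was taken. The log2 fold changes of Jag2, Hey1, and Notch4 (-2.54, -2.08, and -1.65) lay inside both ranges. Relative to the 7 smooth muscle markers, Heyl differed from PBS by -0.63, -1.07, and -0.95 at the 3 times, and relative to 8 pericyte markers by -1.31, -1.17, and -0.94. In each of these ratios of Heyl the LPS libraries lay below all PBS libraries. Notch3 differed from PBS by 0.47, -0.19, and -0.06 relative to smooth muscle markers and by -0.21, -0.28, and -0.04 relative to pericyte markers.

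**Figure D3:**
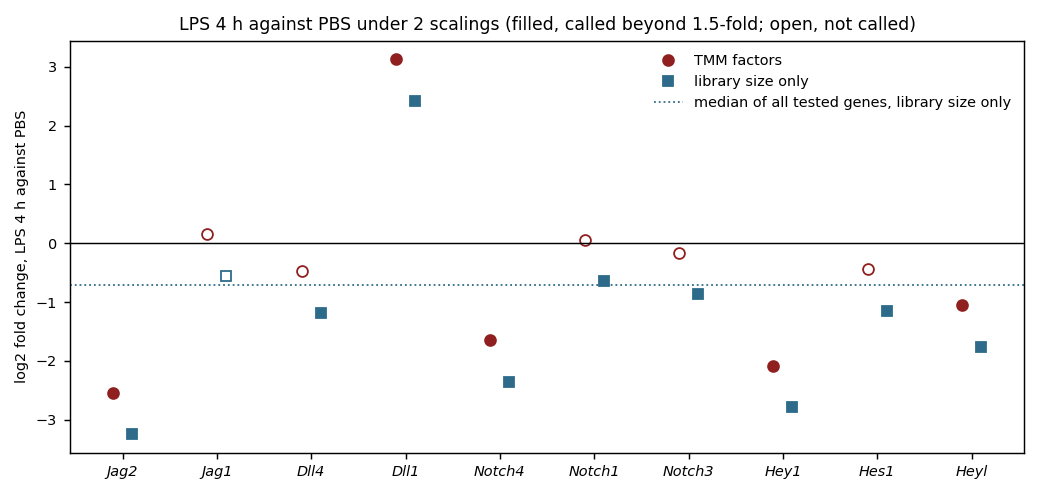
Log2 fold change between LPS 4 h and PBS (vertical axis) of the 10 members with TMM factors (circles) and with library size only (squares). Filled symbols passed the test beyond 1.5-fold, and the dotted line is the median of all tested genes with library size only, at -0.71. Jag2, Notch4, Hey1, and Heyl lie below both reference levels and Dll1 above both, while Jag1 and Notch1 change sign between the scalings.

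Levels of different genes were compared as TPM, which divides by transcript length and is read here only within a group. In PBS the order was Jag2 (272 ± 16.2 TPM, SD, n = 3), Notch4 (192 ± 5.38), Jag1 (74.0 ± 2.90), Hes1 (72.0 ± 4.10), Hey1 (70.1 ± 3.76), Notch3 (59.8 ± 0.316), Notch1 (44.9 ± 2.74), Dll4 (38.5 ± 1.71), Heyl (21.5 ± 0.909), and Dll1 (11.5 ± 2.04). Jag1, Hes1, and Hey1 did not differ beyond their spread, and the other neighbours did not overlap. Jag2 exceeded 98.0% of tested genes in PBS, Notch4 96.9%, and Dll1 53.4%. Of the 192 TPM of Notch4 in PBS, 68.4 belonged to its main coding transcript, so its place there rests on other transcripts as well. At LPS 15 min and LPS 30 min Jag2 and Notch4 still led and Heyl was last. At LPS 4 h Dll1 led (56.2 ± 2.68 TPM), followed by Jag1 (41.7 ± 3.09). Notch4 (32.3 ± 3.81), Notch3 (29.0 ± 1.33), Hes1 (28.4 ± 3.00), Jag2 (24.3 ± 1.58), and Notch1 (22.8 ± 2.36) came next, each overlapping its neighbour. Dll4 (14.7 ± 1.13), Hey1 (8.39 ± 0.365), and Heyl (5.41 ± 0.236) were the last 3. By its main coding transcript alone Notch4 was at 11.6 TPM at LPS 4 h, below the same measure for Notch3 (24.0), Hes1 (22.2), Notch1 (21.5), and Jag2 (15.5). By this measure Jag1 rather than Dll1 led the ligands at LPS 4 h, with 37.0% against 33.0% of their summed TPM.

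The make-up of the ligand pool turned over by LPS 4 h. Of the summed TPM of the 4 ligands, Jag2 made up 68.7% ± 0.867 in PBS and 67.5% ± 0.447, 65.6% ± 0.203, and 17.8% ± 0.860 at the 3 LPS times in order. Dll1 made up 2.88% ± 0.360 in PBS and 4.56% ± 0.679, 4.04% ± 0.433, and 41.0% ± 1.30 at these times. Jag1 went from 18.7% ± 0.345 in PBS to 14.1% ± 0.435 at LPS 15 min and 30.5% ± 2.41 at LPS 4 h. Dll4 had 9.74% ± 0.623 in PBS and 13.8% ± 0.414, 15.5% ± 0.301, and 10.8% ± 0.507 at these times. Of the 3 receptors, Notch4 made up 64.7% ± 1.31 in PBS and 38.4% ± 2.37 at LPS 4 h, Notch3 20.2% ± 0.266 and 34.6% ± 1.25, and Notch1 15.1% ± 1.04 and 27.1% ± 1.68. About as much of the Notch4 TPM was assigned to a processed transcript without a protein product (Notch4-210, 46.8% ± 2.52 in PBS) as to its main coding transcript (35.7% ± 0.544). With only the first-numbered coding transcript of each gene, an alternative added after seeing the data, Notch4 had 43.2% of the receptor TPM in PBS and 20.3% at LPS 4 h. Between these groups it went from the largest share of the 3 receptors to the smallest, below Notch3 (42.1%) and Notch1 (37.6%). On this measure Jag2 had 61.1% and 15.4% of the ligand TPM, and Jag1 rather than Dll1 had the largest ligand share at LPS 4 h, 37.0% against 33.0%.

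**Figure D4:**
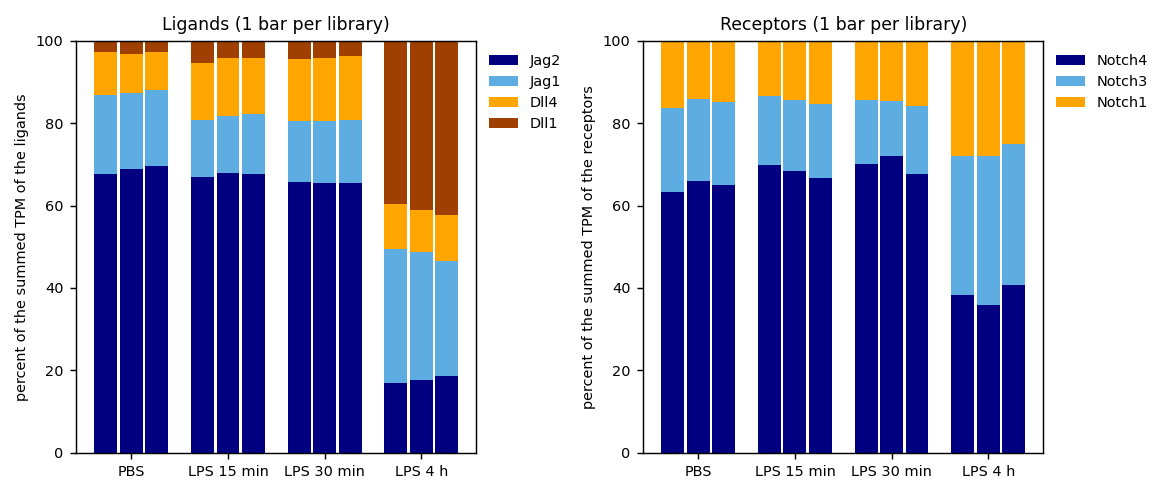
Share of the summed TPM of the 4 ligands (left) and of the 3 receptors (right) held by each gene, in percent, with 1 bar per library. Jag2 holds 67.8% to 69.5% of ligand TPM in the PBS libraries and 17.0% to 18.7% in the LPS 4 h libraries, and Dll1 2.66% to 3.29% and 39.7% to 42.3%.

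The kit does not mark strand, so reads of overlapping antisense genes cannot be told apart from those of members. Exonic bases were shared with genes on the opposite strand at Notch1 (0610009E02Rik and Gm13568), Notch3 (Gm17276), Dll1 (A930024N18Rik), and Dll4 (Gm14207). Gm14207 had 12 to 124 estimated fragments per library, at most 5.31% of its sum with Dll4, and 0610009E02Rik at most 5.33% of its sum with Notch1. A930024N18Rik was not among the genes with an estimate, so its part in the Dll1 values was not tested.

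The other genes of the pathway were taken from a list of 59, of which 56 passed the filter on low counts (Dll3, Hes2, and Hes3 did not). At LPS 15 min Dlk2, which encodes a Delta-like protein without the usual receptor-binding domain, was the 1 gene of the 56 that passed. It rose by 1.30 (SE 0.085, edgeR adjusted p = 1.8e-07), from 13.9, 16.9, and 13.8 CPM in PBS to 33.8, 40.1, and 36.3, and was at 20.9, 20.7, and 19.4 at LPS 30 min and 16.2, 15.2, and 18.4 at LPS 4 h. The 6 neuron markers took a like course early: their sum was 317 to 329 CPM in PBS, 490.3 to 502 at LPS 15 min (2 rose), then 302 to 303 and finally 244 to 255 CPM, and their part in the Dlk2 values was not tested. At LPS 30 min 0 of the 56 passed the edgeR test and 1 had an unadjusted p under 0.05. DESeq2 and limma also called 0, and edgeR with no fold limit called 27. At LPS 4 h 12 rose and 14 fell, 46.4% of the list beside 32.8% of all genes, and their median log2 fold change was -0.21. With library size only 4 rose and 33 fell, and Rbpj, Maml1, Maml2, Kat2b, Adam17, Furin, Dtx2, and Tle3 were no longer called.

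Enzymes that add sugars to the receptor, which tune which ligands it answers, had 4 of 5 members fall at LPS 4 h and 0 rise, beside 13.8% of all genes called downward. Lfng, the lunatic fringe glycosyltransferase, went from 77.1, 82.7, and 76.9 CPM in PBS to 9.64, 10.7, and 10.6 and fell by 2.93 (SE 0.061, edgeR adjusted p = 1.6e-20). Mfng, the manic fringe enzyme, went from 61.6, 64.7, and 63.3 CPM to 12.7, 12.9, and 11.1 and fell by 2.37 (SE 0.079). Pofut1, which adds the O-fucose that fringe enzymes extend, fell by 1.06 (SE 0.057), and Rfng, the radical fringe enzyme, by 0.73 (SE 0.058). Poglut1 differed by -0.44 and did not pass.

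Of 6 further genes listed here as Notch targets, 5 fell at LPS 4 h and 1 rose, beside 13.8% of all genes called downward and 19.0% upward. Hes5, a repressor best known from neural progenitors, was low throughout, at 3.15, 3.81, and 3.63 CPM in PBS and 0.848, 0.799, and 0.615 at LPS 4 h, and fell by 2.22 (SE 0.24, edgeR adjusted p = 5.6e-07). Hey2, the third Hey family repressor and an arterial gene, went from 31.4, 31.3, and 33.0 CPM to 12.5, 11.7, and 14.2 and fell by 1.32 (SE 0.080, adjusted p = 3.5e-09). At LPS 15 min Hey2 was at 22.0, 21.7, and 20.4 CPM, below every PBS library, at a log2 difference of -0.58 (SE 0.068) that did not pass. Hes6, of the Hes family, fell by 1.64 (SE 0.094), Efnb2, the arterial ephrin-B2, by 1.14 (SE 0.052), and Nrarp, a feedback inhibitor of Notch, by 0.88 (SE 0.059). Hes7, an oscillating repressor of the embryo, went from 1.07 ± 0.39 CPM (SD, n = 3) to 10.3 ± 0.57, a rise of 3.26 (SE 0.26).

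Of 10 genes of the nuclear complex, 4 rose and 0 fell at LPS 4 h, beside 19.0% of all genes called upward, whereas with library size only 0 rose and 3 fell. With no fold limit 6 were higher and 2 lower. Rbpj, the DNA-binding partner of every Notch receptor, went from 48.0, 42.0, and 44.3 CPM in PBS to 74.2, 81.6, and 75.4 and rose by 0.79 (SE 0.062, edgeR adjusted p = 0.0015). The Mastermind coactivators Maml2 (1.18, SE 0.060) and Maml1 (0.73) and the acetyltransferase gene Kat2b (0.77, SE 0.049) rose too. Among 10 cleavage genes 3 rose and 2 fell, 50% of them beside 32.8% of all genes. Scaled by library size only, 1 rose and 6 fell. Adam17, a sheddase that also releases tumor necrosis factor, rose by 0.92 (SE 0.043) from 75.1, 78.1, and 72.5 CPM to 145, 137, and 146. Adam10, the protease that cuts ligand-bound Notch, fell by 0.77 (SE 0.031) from 181, 178, and 184 CPM to 108, 104, and 106. Psen2, a catalytic subunit of γ-secretase, rose by 1.58 (SE 0.056), and Furin, which cuts the receptor during its maturation, rose by 0.86. Aph1c, a γ-secretase subunit, fell by 0.73 (SE 0.087) and passed only narrowly (edgeR adjusted p = 0.049).

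Of 12 genes of ubiquitination and endocytosis, 2 rose and 2 fell at LPS 4 h, 33.3% of them beside 32.8% of all genes. Dtx3l, a Deltex family ubiquitin ligase also known as an interferon-responsive gene, showed the largest change of the list, from 30.8, 25.7, and 27.2 CPM in PBS to 396, 407, and 397, and rose by 3.84 (SE 0.052, edgeR adjusted p = 8.5e-25). Dtx2 rose by 0.93 (SE 0.077), and the ligand-ubiquitinating enzymes Mib2 and Neurl1b fell by 0.73 (SE 0.040) and 0.84 (SE 0.13). Of 9 corepressors (33.3% called), Tle4 (1.53, SE 0.061) and Tle3 (1.18, SE 0.036) rose and Tle2 fell by 0.93 (SE 0.062). Notch2, the fourth receptor, did not pass at any time. It had 70.8, 66.1, and 62.6 CPM in PBS and 53.5, 51.0, and 49.6 at LPS 15 min. It had 70.6, 69.9, and 69.9 CPM at LPS 30 min and 69.8, 67.1, and 68.7 at LPS 4 h, so that LPS 15 min alone lay apart from PBS (-0.37, SE 0.047).

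**Figure D5:**
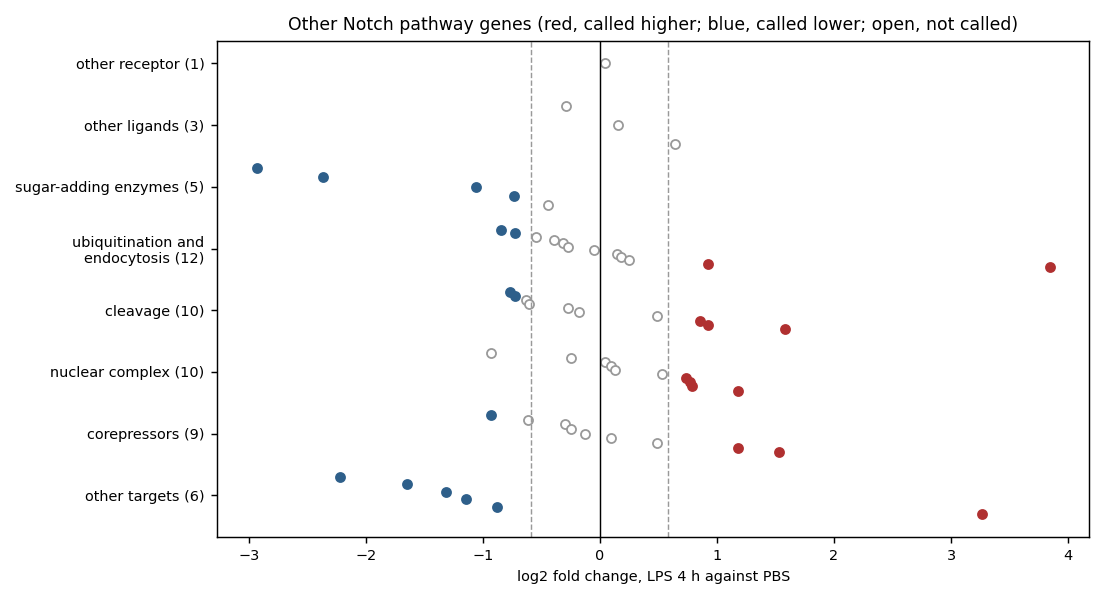
Log2 fold change between LPS 4 h and PBS (horizontal axis) of the 56 tested other pathway genes, 1 point per gene, in rows by role with the number of genes in brackets. Red points passed the test upward, blue points downward, open points did not pass, and dashed lines mark 1.5-fold. The sugar-adding enzymes lie to the left (4 blue, 0 red), the other targets have 5 blue and 1 red, and the nuclear complex has 4 red and 0 blue, against 0 higher and 3 lower with library size only.

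Genes with profiles most like the members were ranked by Pearson's r of log2 CPM over the 12 libraries among 12769 genes of at least 5 CPM. These r values describe 4 groups of libraries and carry no test. The nearest to Jag2 were Sox13, Hspa12b, and Aes (r = 0.999 for each). The nearest to Notch4 were Jcad (0.999), Sptan1 (0.999), and Slc9a3r2 (0.998), and to Hey1 Clcn2, Slco1c1, and Zfp366 (0.998 for each). Jcad encodes a protein of endothelial junctions, and Slco1c1 a thyroid hormone transporter of brain endothelium. Among the members themselves, Jag2 and Notch4 (0.995), Notch4 and Hey1 (0.988), and Jag2 and Hey1 (0.986) ran closest. The nearest to Dll1 were Gm45663, Mir17hg, and Cd200 (0.998 for each), and to Dll4 Id1 (0.994), Ttll7 (0.992), and Crocc (0.991). Id1, which encodes an inhibitor of bHLH factors, averaged 370 CPM in PBS and 723, 726, and 222 CPM at the 3 LPS times in order. The nearest to Heyl were Snrnp200 (0.984), Synpo2 (0.962), and Hrct1 (0.961). Snrnp200 averaged 131 CPM in PBS and 115, 114, and 118 CPM at the 3 LPS times in order, a smaller change than that of Heyl. Synpo2, which encodes an actin-binding protein of muscle cells, averaged 108 CPM in PBS and 44.3, 44.1, and 59.3 CPM at the 3 LPS times. The nearest to Jag1 was Rad54l2 (0.964), to Notch3 Leng8 (0.961), to Hes1 Reps2 (0.977), and to Notch1 Arhgdig (0.935). With TMM factors, Jag1, Notch3, Hes1, and Notch1 did not pass the 1.5-fold test against PBS at any time.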

How the data were processed

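Cerebral vessel RNA of 12 libraries was amplified with SMART-Seq v4, which does not mark strand, and sequenced as paired ends. Per the labels, the authors used Salmon 1.2.1 and DESeq2 on GRCm38.p6. The authors deposited, per transcript, estimated counts (fragments, not normalized) and TPM (scaled for transcript length to a constant sum), and a gene table of normalized signal, counts divided by size factors. Gene table columns were matched to libraries by the sample number in the file names.

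Transcripts were joined by identifier to GENCODE M21 (139852 of 140948; the rest held at most 0.850% of a library), and estimated counts were summed to genes and rounded. Depth was 18.3 to 25.9 M fragments. In edgeR 4.0.16 (R 4.3.3), filterByExpr (10, 15, 0.7) kept 19150 genes, and glmQLFit with glmTreat tested changes beyond 1.5-fold at an adjusted p of 0.05. The SE is the log2 fold change divided by the root of the quasi-likelihood F. The test was tried on simulated data. Library numbers did not pair libraries: the within-group deviations of same-numbered libraries correlated at -0.049 to 0.068 in 18 pairs. No 2 libraries agreed within sampling noise. Members, lists, and tests were chosen with earlier results of these data known. Named genes were the 10 members, pathway genes called at LPS 15 min or LPS 30 min, the 8 largest called at LPS 4 h with at least 50 counts, 7 fixed genes (Notch2, Rbpj, Hes5, Hey2, Nrarp, Adam10, Adam17), and the 3 genes most like each member. Pathway genes named beyond these were chosen after their values were seen. Alternatives were DESeq2 1.42.0, RLE factors, library size only, no filter, no fold limit, a length offset, limma 3.58.1 on the normalized table plus 1 or 10, the groups compared only, a replicate block, and leaving out each library. Promoters were read from RefSeq windows on GRCm38.p6.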

Additional observations from a re-analysis of the deposited data

Results flagged for a closer look

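For 5 members the log2 change from PBS differed between LPS 30 min and LPS 4 h, by the direct contrast of these groups in edgeR with the 1.5-fold limit. The difference was -2.53 for Jag2, which had stayed at its PBS level to LPS 30 min, and -2.24 for Hey1 and -1.82 for Notch4, which had stood slightly above PBS. It was -1.20 for Dll4, whose change from PBS went from 0.72 to -0.48. It was 2.47 for Dll1, whose change went from 0.66 to 3.13. No such difference between times was called for the other 5 members.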

How the results depend on the processing

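Every member called against PBS at LPS 15 min or LPS 4 h, or called at LPS 4 h against LPS 30 min, kept its direction and passed under each alternative run, as did the fall of Heyl at LPS 30 min. Dll4 at LPS 30 min did not: 1 member rather than 2 was called there with DESeq2, library size only, the length offset, and limma plus 1 or 10, and 1 to 2 when a library was left out. Library size only, under which the median gene fell by 0.71 at LPS 4 h, called 9 members at LPS 4 h (1 higher, 8 lower) and 1 other pathway gene at LPS 30 min. With no fold limit, 8 members were called at LPS 15 min and 9 at each later time, 5 between LPS 30 min and LPS 15 min, and 8 between LPS 4 h and LPS 30 min, and 29, 27, and 49 of the 56 other pathway genes at the 3 times. Leaving out a library gave 5 members and 24 to 26 other pathway genes at LPS 4 h, and the replicate block left the counts at 1, 2, and 5 members and changed no call.

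Signs of small differences that were not called by TMM turned in places. Notch1 was -0.0070, -0.016, and -0.10 at the 3 times in order with the length offset, -0.025, -0.028, and -0.10 with limma on either pseudocount, and with library size only -0.057 at LPS 30 min and -0.65 at LPS 4 h. Library size only also turned Jag1 (-0.55 at LPS 4 h, -0.21 against LPS 30 min) and Hey1 at LPS 30 min (-0.0080). Jag2 at LPS 15 min was 0.078 with the length offset and 0.063 with limma, and leaving out 1 library gave Jag2 values of -0.022 to 0.030 (LPS 15 min) and -0.033 to 0.020 (LPS 30 min). The cause of these differences was not tested.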
